A study of Mus musculus with 4 samples.

Results

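The 10 genes described here, Pf4, Ppbp, F13a1, Mmrn1, Tubb1, Rgs18, Plek, Fermt3, Tbxas1 and P2rx1, encode proteins of the granules and the cytoplasm of platelets. They were chosen by name and were found as 13 probes among 39429 non-control probes. All 10 passed the filter on dim signals and are among 17362 tested genes. The RNA came from spleens of Ackr4GFP/wt mice, which carry 1 Ackr4 allele with a green fluorescent protein (GFP) reporter, and age and sex are not given in the sources used here. Both groups shared this genotype. ACKR4, an atypical chemokine receptor that takes up chemokines without classical signalling, was read through GFP. Spleens were digested for 45 and then 20 min, erythrocytes were lysed, and beads removed most cells with CD45. DAPI-negative CD45-negative single cells with CD31 on their surface were sorted into ACKR4-positive and ACKR4-negative populations. Each of 2 independent sorts pooled 2 to 3 mice, per the labels' protocol, and gave 1 array per population, so each group has n = 2 arrays. The p-values therefore measure the spread between these pools.

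Platelets are anucleate cells shed by megakaryocytes, which in mice mature in bone marrow and also in spleen. Their alpha granules store chemokines and adhesive proteins, their dense granules store nucleotides and serotonin, and both are released when the cell is activated. Activation runs through surface receptors, calcium and small GTPases to the integrins that bind fibrinogen, and thromboxane made in the cytoplasm spreads it to neighbouring platelets. CD31, the surface protein used in the sort, is carried by endothelial cells and also by platelets, megakaryocytes and several leukocytes.

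Each gene was read by 60-base probes, and 3 genes had a second probe that did not report like the first. The probes of the chemokine pair, of Tubb1 and of the 3 genes with 2 probes are shown by their first 30 bases, 5′ to 3′, with the position of the whole probe on mm9 as the files give it.
Pf4 probe A_51_P441426, chr5:91202275-91202334, plus strand: ctggagagttaggtatcagctgcctaaatg
Ppbp probe A_51_P428372, chr5:91198970-91199029, plus strand: ctggtcatgaccatgtttttccaatttctt
Tubb1 probe A_66_P126159, chr2:174283277-174283336, plus strand: acctggtgtctgagtaccaacaattccaag
F13a1 probe A_51_P507801, chr13:36959214-36959273, minus strand: ctggtttacttctaagtcattgataggttc
F13a1 probe A_55_P2186125, chr13:37063829-37063888, minus strand: ctgaatgacattggagtgatattttatggg
Mmrn1 probe A_51_P423290, chr6:60938883-60938942, plus strand: tcctgtgagtctttccagtgtagaataaaa
Mmrn1 probe A_52_P126132, chr6:60896017-60896076, plus strand: aagtttaccttggatgagtagatcttctat
Tbxas1 probe A_51_P448664, chr6:39034356-39034415, plus strand: ttgtgtcacgctgatatagaaggcacgtgg
Tbxas1 probe A_55_P2175571, chr6:38902132-38902191, plus strand: ttgggtaaggtgtgcctgctaacagtaata
The Pf4 and Ppbp probes lie close together on chromosome 5, where both genes sit in a cluster of chemokine genes. The second probes of Mmrn1 and Tbxas1 were well above background on no array, and the second F13a1 probe reached that mark on 50% of its spots on ACKR4-negative replicate 1 and on none elsewhere. These 3 probes were not tested, and each gene is described by its other probe. The Fermt3 probe, A_52_P38639 on chromosome 19 (7074257 to 7076292, minus strand), has 60 bases that the files place over 2036 bases of the genome, so it crosses at least 1 splice junction. Whether the other probes lie in exons of the coding or untranslated part was not analysed here.

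Promoters are shown because the genes moved together. The RefSeq table of promoters on GRCm38.p6 held 9 of the 10 genes (Rgs18 was not matched) with 10 promoters, F13a1 having 2. The 250 bases before the start of 5 genes follow, 5′ to 3′ on the gene's strand. Capitals mark AGATAA or TGATAA, sequences bound by GATA factors, and AGGAAG, a core bound by ETS factors, on either strand.
Pf4, chr5:90772185-90772434, plus strand: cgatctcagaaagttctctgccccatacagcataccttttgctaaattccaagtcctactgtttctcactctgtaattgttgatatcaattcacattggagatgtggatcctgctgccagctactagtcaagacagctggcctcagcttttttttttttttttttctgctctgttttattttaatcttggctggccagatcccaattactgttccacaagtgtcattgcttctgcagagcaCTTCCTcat
Ppbp, chr5:90768268-90768517, plus strand: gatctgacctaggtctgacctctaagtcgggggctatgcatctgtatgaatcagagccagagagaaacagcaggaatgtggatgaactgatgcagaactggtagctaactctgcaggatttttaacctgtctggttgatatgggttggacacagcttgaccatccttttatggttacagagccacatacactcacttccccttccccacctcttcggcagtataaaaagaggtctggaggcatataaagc
Tubb1, chr2:174450345-174450594, plus strand: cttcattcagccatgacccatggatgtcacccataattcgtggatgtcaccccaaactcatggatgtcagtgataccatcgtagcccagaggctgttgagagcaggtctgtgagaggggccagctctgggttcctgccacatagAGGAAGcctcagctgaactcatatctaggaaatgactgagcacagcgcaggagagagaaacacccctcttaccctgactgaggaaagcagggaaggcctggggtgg
Tbxas1, chr6:38918736-38918985, plus strand: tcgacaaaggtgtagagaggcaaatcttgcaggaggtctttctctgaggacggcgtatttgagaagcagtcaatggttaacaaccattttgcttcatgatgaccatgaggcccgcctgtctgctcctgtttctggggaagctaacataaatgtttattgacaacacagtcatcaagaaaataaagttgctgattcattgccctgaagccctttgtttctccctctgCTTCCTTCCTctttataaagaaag
P2rx1, chr11:72998895-72999144, plus strand: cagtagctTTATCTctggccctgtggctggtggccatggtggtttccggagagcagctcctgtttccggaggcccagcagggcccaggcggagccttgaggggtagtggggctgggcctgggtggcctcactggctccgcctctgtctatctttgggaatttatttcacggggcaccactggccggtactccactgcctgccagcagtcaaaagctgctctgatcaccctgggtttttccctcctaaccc
In the full window of 300 bases, which adds 50 bases after the start, a GATA sequence was found in 3 of the 10 promoters, those of Mmrn1, P2rx1 and Pf4, the last after the start. It was found in 18.6% of all 32851 promoters of the table. The ETS core was found in 6 of 10, both F13a1 promoters and those of Fermt3, Pf4, Tbxas1 and Tubb1, against 35.4% of all promoters. In Tbxas1 its 2 copies overlap, beginning 24 and 20 bases before the start. Pf4 was the 1 gene with both, against 6.65% of all promoters. A match is a description of these letters and not a binding site, and no difference from the other promoters was tested.

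Levels are log2 signals minus the array's 75th percentile, so a level of 0 equals that percentile, and values of a group are given as replicate 1, then replicate 2. That percentile stood at a signal of 770 and 656 on ACKR4-negative arrays and of 949 and 590 on ACKR4-positive arrays, and 54.9% to 58.3% of probes were well above background. Levels correlated across genes at 0.972 between the ACKR4-negative arrays and at 0.961 between the ACKR4-positive arrays. Spiked-in control RNA had a median signal of 837 on ACKR4-negative replicate 1 and of 2749 to 3489 on the other 3 arrays. Ackr4 itself had levels of -7.53 and -7.50 without the reporter signal and -0.21 and 2.55 with it, which matched the labels. It was higher by 8.69 ± 0.95 (log2, SE, n = 2 per group, limma adjusted p = 0.0181). Neither ACKR4-negative array was well above background for Ackr4, and by the nominal bound described below the difference was at least 107-fold. The endothelial genes Pecam1 (CD31) and Cdh5 were well above background on all 4 arrays and differed by -0.15 ± 0.41 and -0.69 ± 0.33, neither past the threshold.

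All 10 platelet genes were lower in ACKR4-positive cells, by limma with Benjamini-Hochberg adjustment over 17362 genes at a threshold of 0.05, and 0 were higher, also at an unadjusted p under 0.05. Of all tested genes, 3.71% were called lower and 1.91% higher, and 9.13% were lower and 7.12% higher at an unadjusted p under 0.05. For each of the 10 genes both ACKR4-positive arrays lay below both ACKR4-negative arrays, which held for 21.6% of tested genes. F13a1, Mmrn1, Tubb1, Rgs18, Fermt3 and Tbxas1 passed the filter on dim signals only through the ACKR4-negative arrays, which favours finding a fall. When only probes well above background on all arrays were tested, 4 of the 10 genes were left. Of those, 3 were called lower, beside 276 of 15705 tested genes. The median difference over the 10 genes was -7.20 (log2), or -6.42 with F13a1 and Tubb1 at their bounds, against 0.04 over all tested genes with quartiles of -0.35 and 0.37. With the sort as a block, 10 were called lower beside 8.55% of all genes lower and 6.75% higher. Without ACKR4-negative replicate 1, and also without ACKR4-negative replicate 2, 6 of the 10 calls were kept, and 10 were kept without either ACKR4-positive array. In bulk samples such as these, fewer cells of a type and less RNA per cell cannot be told apart.

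**Figure D1:**
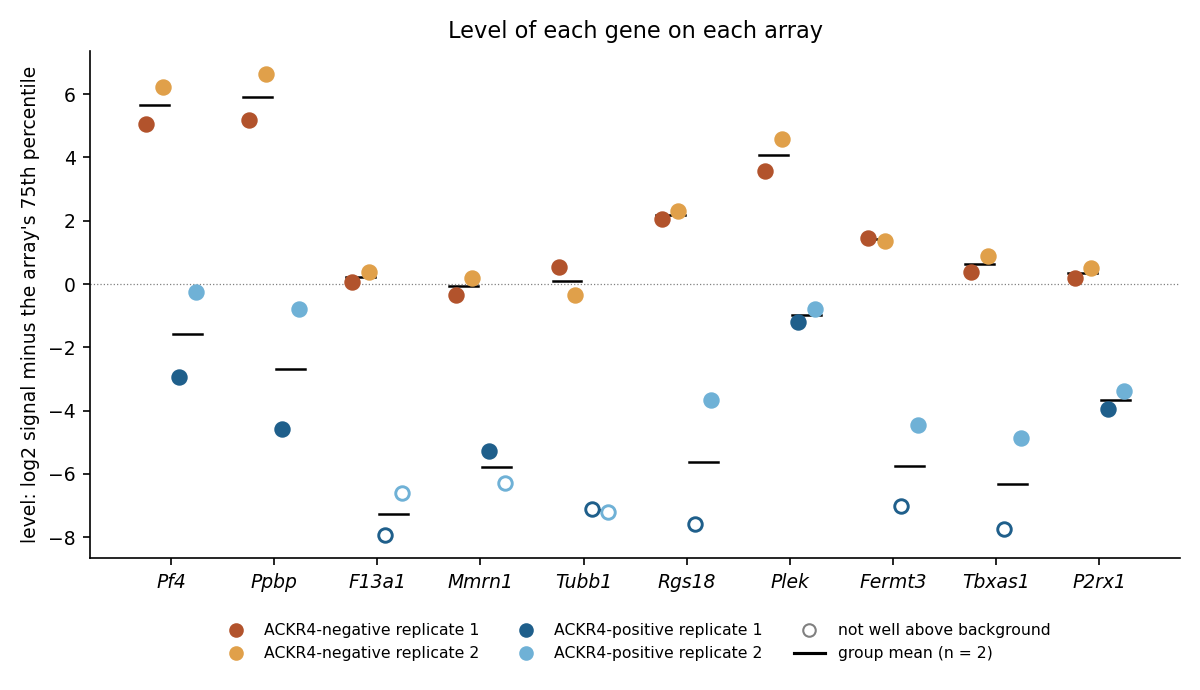
Level of each of the 10 genes on each array, as log2 signal minus the 75th percentile of that array; points are the 4 arrays, bars the group means (n = 2), and open points were not well above background. For every gene both ACKR4-positive arrays lie below both ACKR4-negative arrays, and the ACKR4-positive arrays of Pf4 and Ppbp, both filled points, lie over 2 units apart.

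**Figure D2:**
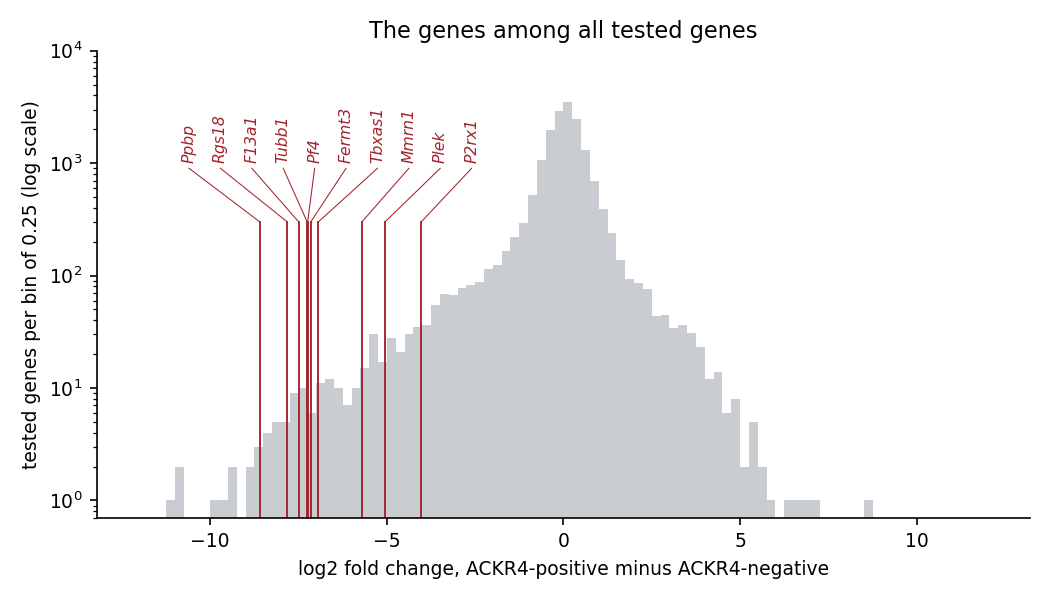
Histogram of the log2 fold change of all 17362 tested genes (x axis, bins of 0.25) on a log scale of genes per bin (y axis), with the 10 genes as red lines. The 10 genes lie between -8.59 and -4.03, while the median of all genes is 0.04.

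The 2 alpha granule chemokines fell and stayed measurable in ACKR4-positive cells. Pf4, platelet factor 4, binds heparin-like chains and is released in bulk on activation. Its signal was 25880 and 49420 in the ACKR4-negative group against 123.8 and 500.4 in the ACKR4-positive group, with levels of 5.07 and 6.24 against -2.94 and -0.24. The groups did not overlap, ACKR4-negative replicate 2 was the highest array, and Pf4 was well above background on all 4. The difference was -7.24 ± 1.01 (SE; adjusted p = 0.0310), which left 0.388% of the ACKR4-negative signal in sort 1 and 1.13% in sort 2 after each array was scaled to its 75th percentile. All shares left are shares of this scaled signal. Ppbp, pro-platelet basic protein, is cleaved into chemokines that draw neutrophils. Its levels were 5.17 and 6.64 in the ACKR4-negative group against -4.58 and -0.79 in the ACKR4-positive group, from signals of 27780, 65620, 39.72 and 341.1. Ppbp also was well above background on every array without overlap, and its ACKR4-positive arrays differed from each other by 3.79. It fell by 8.59 (SE 1.37; adjusted p = 0.0429), the largest fitted fall of the 10 genes, and 0.116% and 0.578% of the scaled signal were left in sorts 1 and 2. With 1 array left out, the Pf4 difference ran from -8.59 to -5.89 and that of Ppbp from -10.49 to -6.70. The Pf4 call was lost without ACKR4-negative replicate 2 (adjusted p = 0.0627) and the Ppbp call without ACKR4-negative replicate 1 (0.0590) or replicate 2 (0.0854) and among genes well above background on all arrays (0.0541).

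The genes next to this pair on the chromosome were looked up by position after the values of the pair were known. On 1 side, Cxcl5, Rassf6, Albfm1 and Afm were not tested. Beyond them Afp, the alpha-fetoprotein gene and the farthest looked up there, had levels of -4.26 and -4.19 in the ACKR4-negative group against -7.95 and -7.19 in the ACKR4-positive group. Neither ACKR4-positive array was well above background, and Afp was at least 2.73-fold lower (fitted difference -3.35 ± 0.36, adjusted p = 0.0180). Its call was lost with normexp background correction (0.436) and without ACKR4-negative replicate 1 (0.0632) or replicate 2 (0.0635). On the other side, Cxcl3, Cxcl15 and Cxcl2 were not tested either, and Cxcl1, a neutrophil-attracting chemokine, differed by -1.17 ± 1.23 (adjusted p = 0.780). With the sort as a block Cxcl1 was called lower (0.0435), and without ACKR4-positive replicate 2 its difference was 0.27. Mthfd2l, just beyond, differed by -0.61 ± 0.26 (adjusted p = 0.374). No difference between these genes and the platelet pair was tested.

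Mmrn1, multimerin, is a large alpha granule protein that carries factor V. Its levels were -0.35 and 0.20 in the ACKR4-negative group against -5.28 and -6.29 in the ACKR4-positive group. It was well above background on ACKR4-positive replicate 1 and not on replicate 2, the opposite order from Rgs18, Fermt3 and Tbxas1. Mmrn1 fell by 5.71 (SE 0.46; adjusted p = 0.0116), with 3.28% of the scaled signal left in sort 1 and at most 2.20% in sort 2. F13a1, the catalytic subunit of factor XIII, which crosslinks fibrin, is held in the platelet cytoplasm and also made by macrophages. Its levels were 0.05 and 0.39 against -7.95 and -6.60, the last 2 not well above background. F13a1 was therefore at least 59.3-fold lower in ACKR4-positive cells (fitted difference -7.49 ± 0.53, adjusted p = 0.00974). For such bounds, the lowest level that any probe reached well above background on an array replaced a dimmer level of the gene there. Some probes not well above background lay higher than that. Slc35d3, a dense granule gene, was at -5.65 on ACKR4-positive replicate 1, where the lowest level well above background was -6.03. All values given as at least or at most are therefore nominal, and the difference can be smaller than a bound. The calls of Mmrn1 and F13a1 were kept in all 14 alternatives in which each was tested.

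Tubb1 encodes the beta-tubulin of megakaryocytes and platelets, which forms the ring of microtubules that gives platelets their disc shape. Its levels were 0.54 and -0.34 in the ACKR4-negative group against -7.10 and -7.21 in the ACKR4-positive group. Neither ACKR4-positive array was well above background, so Tubb1 was at least 54.5-fold lower (fitted difference -7.26 ± 0.39, adjusted p = 0.00686). It was the 1 gene of the 10 besides Fermt3 whose ACKR4-negative level was higher in sort 1. Plek encodes pleckstrin, the main protein kinase C substrate of platelets, which leukocytes make as well. Plek levels were 3.56 and 4.59 against -1.19 and -0.78, all well above background. It fell by 5.05 (SE 0.45; adjusted p = 0.0133), and 3.73% and 2.43% of the scaled signal were left in sorts 1 and 2. Tubb1 and Plek kept their calls in every alternative in which they were tested.

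Rgs18, a regulator that shortens G protein signals in platelets and other blood cells, had levels of 2.05 and 2.32 in the ACKR4-negative group against -7.59 and -3.67 in the ACKR4-positive group. ACKR4-positive replicate 1 was not well above background, and the groups did not overlap. Rgs18 was at least 272-fold lower in sort 1 and 63.6-fold lower in sort 2. The fitted difference was -7.82 ± 1.33 with an adjusted p of 0.0499, just under the threshold. This call was lost with quantile normalization (adjusted p = 0.0515) and without ACKR4-negative replicate 1 (0.0944) or replicate 2 (0.0971).

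Fermt3, the kindlin of blood cells, binds integrin beta chains from inside and is needed to switch them on. Its levels were 1.47 and 1.36 against -7.01 and -4.47, with ACKR4-positive replicate 1 not well above background. It fell by 7.16 (SE 0.88; adjusted p = 0.0237), at least 181-fold in sort 1 and 56.9-fold in sort 2. Tbxas1, thromboxane synthase, makes the short-lived lipid that activates nearby platelets, and macrophages also carry it. Its levels were 0.37 and 0.88 against -7.75 and -4.88, again with ACKR4-positive replicate 1 not well above background. Tbxas1 fell by 6.94 (SE 1.00; adjusted p = 0.0343), at least 84.7-fold in sort 1 and 54.0-fold in sort 2. Without ACKR4-negative replicate 1 the adjusted p was 0.0515 for Fermt3 and 0.0621 for Tbxas1, and without ACKR4-negative replicate 2 it was 0.0702 for Tbxas1.

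P2rx1 encodes an ATP-gated cation channel that lets calcium into platelets. Its levels were 0.20 and 0.51 in the ACKR4-negative group against -3.95 and -3.39 in the ACKR4-positive group, all well above background. P2rx1 fell by 4.03 (SE 0.34; adjusted p = 0.0120), the smallest fitted fall of the 10, and 5.60% of the scaled signal was left in sort 1 and 6.70% in sort 2. Its arrays lay close together within each group, and its call was kept in all 15 alternatives.

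The median difference of the 10 genes was -6.49 in sort 1 and -5.73 in sort 2 with the dim ACKR4-positive arrays, 5 in sort 1 and 3 in sort 2, at their bounds. F13a1 and Tubb1, dim on both ACKR4-positive arrays, have no order between the sorts. Of the other 8 genes, with a dim array at its bound, the difference was larger in sort 1 for 6 and in sort 2 for Mmrn1 and Plek. With 1 array per group in each sort, this is a description with no test. Pf4, Ppbp, Plek and P2rx1 were well above background on both ACKR4-positive arrays, and all 4 had a lower level in replicate 1, by gaps of -3.79 to -0.41. Over the 16492 tested genes measured on both arrays, the quartiles of that gap were -0.59 and 0.25. Between the ACKR4-negative arrays 8 of 10 were also lower in replicate 1, by a median of -0.42. Among the 5 genes well above background on ACKR4-positive replicate 1, the share left ran from 0.116% (Ppbp) to 5.60% (P2rx1). Among the 7 on replicate 2 it ran from 0.578% (Ppbp) to 6.70% (P2rx1), and a dim gene has only a nominal upper limit.

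**Figure D3:**
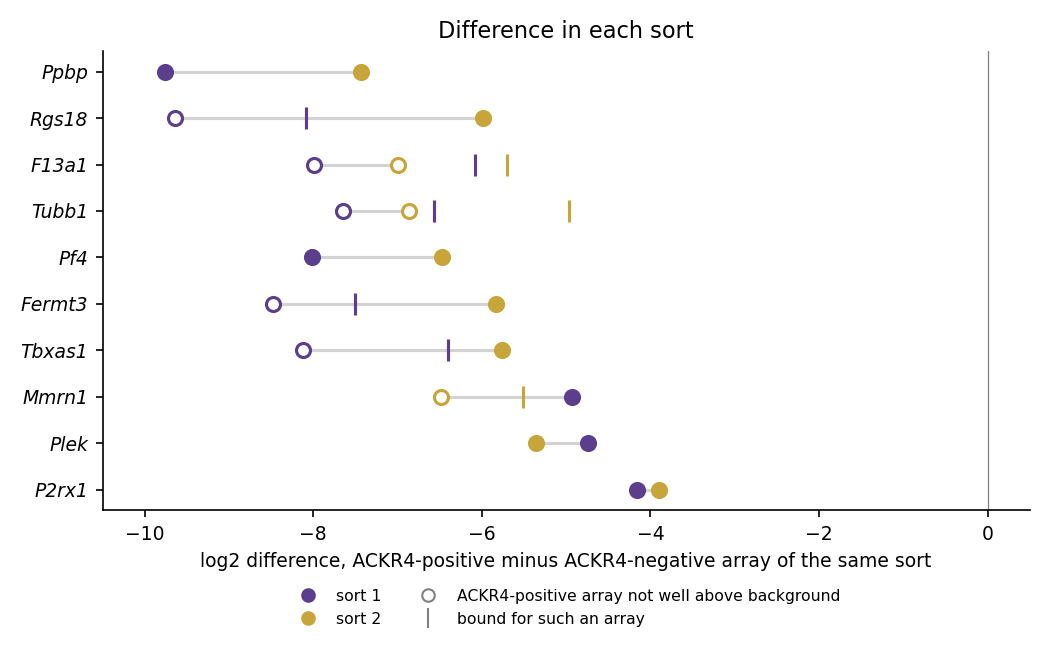
Log2 difference between the ACKR4-positive and the ACKR4-negative array of each sort (x axis) for each of the 10 genes (y axis); open points had an ACKR4-positive array not well above background, and the ticks are their bounds. With dim arrays at their bounds, sort 1 lies to the left of sort 2 for 6 of the 8 genes measured on an ACKR4-positive array, and the order is turned for Mmrn1 and Plek.

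The size of the fall depended on how background was removed for genes near it in ACKR4-positive cells. With normexp background correction at an offset of 50, which keeps dim signals away from 0, the difference was -3.84 for F13a1, -3.74 for Tubb1, -3.29 for Mmrn1, -4.03 for Tbxas1 and -4.68 for Fermt3. For F13a1 and Tubb1 this was a smaller fall than their nominal bounds of 5.89 and 5.77 (log2). The Rgs18 difference was -5.31. For Rgs18, Fermt3 and Tbxas1 the normexp fall was also smaller than the differences of -5.99, -5.83 and -5.76 measured in sort 2. That of Mmrn1 was smaller than its difference of -4.93 measured in sort 1. With normexp the difference was -6.87 for Pf4, -7.80 for Ppbp, -4.88 for Plek and -3.07 for P2rx1. All 10 genes were called lower in that setting.

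Other platelet genes were compared in the same fit, from 8 lists that include the surface and transcription factor genes described further below. The lists hold 111 genes, of which 107 were tested. Of these, 33 were lower and 2 higher in ACKR4-positive cells, beside 3.71% and 1.91% of all tested genes, and their median difference was -0.91. With the sort as a block, 52 were lower and 5 higher, beside 8.55% and 6.75% of all tested genes. The count of lower genes fell to 21 without ACKR4-negative replicate 1 and to 19 without replicate 2, and that of higher genes ran from 0 to 4. Many genes of these lists are also made by endothelial cells. Of the 107 tested genes, 83 were well above background on both ACKR4-positive arrays. The others passed the filter on dim signals only through the ACKR4-negative arrays, which favours finding a fall. The shares of all tested genes given here are the background for the counts of each list below.

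Of 14 alpha granule genes, 4 fell and 1 rose. Vwf, von Willebrand factor, stored in both platelets and endothelial cells, fell by 6.61 (SE 0.41; adjusted p = 0.00776), from levels of 3.33 and 4.14 to -3.13 and -2.63. Thbs1 (thrombospondin) fell by 5.96, Selp (P-selectin) by 3.36 and Pdgfb, a growth factor chain, by 2.11. Gas6, a ligand of TAM receptor kinases, rose by 2.97 ± 0.32 (adjusted p = 0.0180), a call lost without ACKR4-negative replicate 1 (adjusted p = 0.0775) or ACKR4-positive replicate 1 (0.0568). Nbeal2, needed to form alpha granules, had a difference of -1.02 ± 0.28 (adjusted p = 0.162; 0.0386 with the sort as a block). The median of the list was -0.39. Without ACKR4-negative replicate 1 or 2, Selp (adjusted p of 0.0562 and 0.0524) and Pdgfb (0.179 and 0.203) lost their calls, and Pdgfb did so also without ACKR4-positive replicate 1 (0.128), with no or a stricter filter (0.0644 and 0.0613) and with the mean of its probes (0.0582).

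Of 15 tested genes of dense granules and secretion, 3 fell and 0 rose, with a median of -0.44, and with the sort as a block 5 fell and 1 rose. Abcc4, a transporter of nucleotides, fell by 5.43 (SE 0.42; adjusted p = 0.0107). Rab27b, a small GTPase of granule docking, was at least 23.3-fold lower, and Slc17a9, the vesicular nucleotide transporter, at least 2.06-fold. The Slc17a9 call was lost with normexp background correction, where its difference was -0.65, without either ACKR4-negative array (adjusted p of 0.0691 and 0.0797) and without ACKR4-positive replicate 1 (0.0561). Slc18a2, the vesicular monoamine transporter, had levels of -1.75 and -2.14 in the ACKR4-negative group against 1.27 and -3.13 in the ACKR4-positive group, so its groups overlapped. Its difference of 1.01 ± 1.49 (adjusted p = 0.849) turned to -1.29 with the mean of its probes and to -1.19 without ACKR4-positive replicate 1, and it was called higher, at 3.21 (adjusted p = 0.0347), without ACKR4-positive replicate 2.

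Around Tbxas1, 4 of 10 tested genes of eicosanoid synthesis and reception fell and 1 rose. Alox12, the platelet lipoxygenase, fell by 3.82 (SE 0.32; adjusted p = 0.0119) and Alox5ap, the activating protein of another lipoxygenase, fell by 2.61. Pla2g4a, which releases arachidonic acid, was at least 9.31-fold lower, and the prostacyclin receptor gene Ptgir at least 8.30-fold. Ptgs1, the cyclooxygenase that feeds thromboxane synthase, had levels of 0.33 and 1.27 against -5.82 and -3.20 without overlap, ACKR4-positive replicate 1 not being well above background. Its difference of -5.31 ± 0.96 missed the threshold (adjusted p = 0.0578) and passed it with the sort as a block (0.00181). Tbxa2r, the thromboxane receptor gene, differed by 0.27 ± 0.34 (adjusted p = 0.812), with levels of 4.36 and 4.84 against 4.66 and 5.09. Ltc4s, leukotriene C synthase, rose by 3.76 ± 0.40 (adjusted p = 0.0179), and that call was lost without ACKR4-negative replicate 1 (0.0537). Alox5ap was not called without ACKR4-negative replicate 1 (0.109), ACKR4-negative replicate 2 (0.171) or ACKR4-positive replicate 1 (0.110), nor with no or a stricter filter (0.0546 and 0.0597). Pla2g4a and Ptgir were not called with normexp background correction (0.0943 and 0.0671).

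Of 19 genes of integrin activation and platelet signalling, the pathway in which Fermt3 acts, 6 fell and 0 rose, and 12 fell with the sort as a block. Lcp2, an adaptor below collagen receptors, was at least 43.7-fold lower and its partner Lat at least 18.2-fold. Rgs10, a relative of Rgs18, fell by 5.14 (SE 0.54; adjusted p = 0.0175). Rasgrp2, the calcium-sensitive activator of Rap GTPases, fell by 4.18 (SE 0.68; adjusted p = 0.0440), but not past the threshold without ACKR4-negative replicate 1 (0.0703), ACKR4-negative replicate 2 (0.109) or ACKR4-positive replicate 1 (0.0601), with a stricter filter (0.0555) or with the mean of its probes (0.0587). The median of the 19 was -1.29. Of 19 cytoskeletal genes 3 fell and 0 rose, with a median of -0.53, and with the sort as a block 5 fell and 1 rose. Myl9, a myosin light chain, fell by 4.27, the focal adhesion gene Zyx by 2.21, and Tuba8, an alpha-tubulin, was at least 20.1-fold lower. Myh9 and Tln1, the nonmuscle myosin and talin genes of many cell types, differed by 0.22 ± 0.47 and 0.45 ± 0.55, with signs that turned when 1 array was left out (-0.26 to 0.70 and -0.076 to 0.97). Tuba8 lost its call without ACKR4-negative replicate 1 (adjusted p = 0.0885) or 2 (0.0898), and Zyx when any 1 array was left out (0.0601 to 0.150).

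Beside P2rx1, 7 genes of nucleotide sensing were tested, of which 2 fell and 0 rose. P2ry12, the ADP receptor that antiplatelet drugs block, was at least 14.3-fold lower (adjusted p = 0.0103). P2ry2 fell by 1.72 (SE 0.27; adjusted p = 0.0404), a call lost when any 1 array was left out (0.124 to 0.245) and with no or a stricter filter on dim probes. The other ADP receptor gene, P2ry1, differed by -0.47 ± 0.31 and P2rx4 by 1.02 ± 0.28, neither past the threshold. P2rx4 was called higher with the sort as a block (adjusted p = 0.0397), where 3 of the 7 fell and 1 rose.

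Relatives from the same gene families were compared for contrast, and 3 of 23 tested relatives fell and 1 rose, with a median of -0.80, and with the sort as a block 9 fell and 3 rose. Mmrn2, the endothelial multimerin, differed by 0.25 ± 0.30 (levels 6.76 and 6.32 against 6.84 and 6.73). Fermt2, the kindlin of adherent cells, differed by 0.14 ± 0.27, and the transglutaminase gene Tgm2 by -0.49 ± 0.35. Tubb6 fell by 2.04, Plek2 was at least 2.39-fold and Emilin2 at least 6.27-fold lower, and Plek2 lost its call with normexp background correction at a difference of -0.65. The Tubb6 and Emilin2 calls were lost when any 1 array was left out (adjusted p of 0.0832 to 0.175 and 0.0523 to 0.130), that of Plek2 without either ACKR4-negative array or ACKR4-positive replicate 1 (0.0754 to 0.139), and that of Emilin2 also with normexp (0.151), quantile normalization (0.0669) and median centring (0.0557). Cxcl10, an interferon-induced chemokine gene, rose by 3.03 ± 0.33 (adjusted p = 0.0179). That call was lost without either ACKR4-negative array (0.0775 and 0.0608) and with the mean of its probes (0.138). The difference between a member and its relative was not tested.

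**Figure D4:**
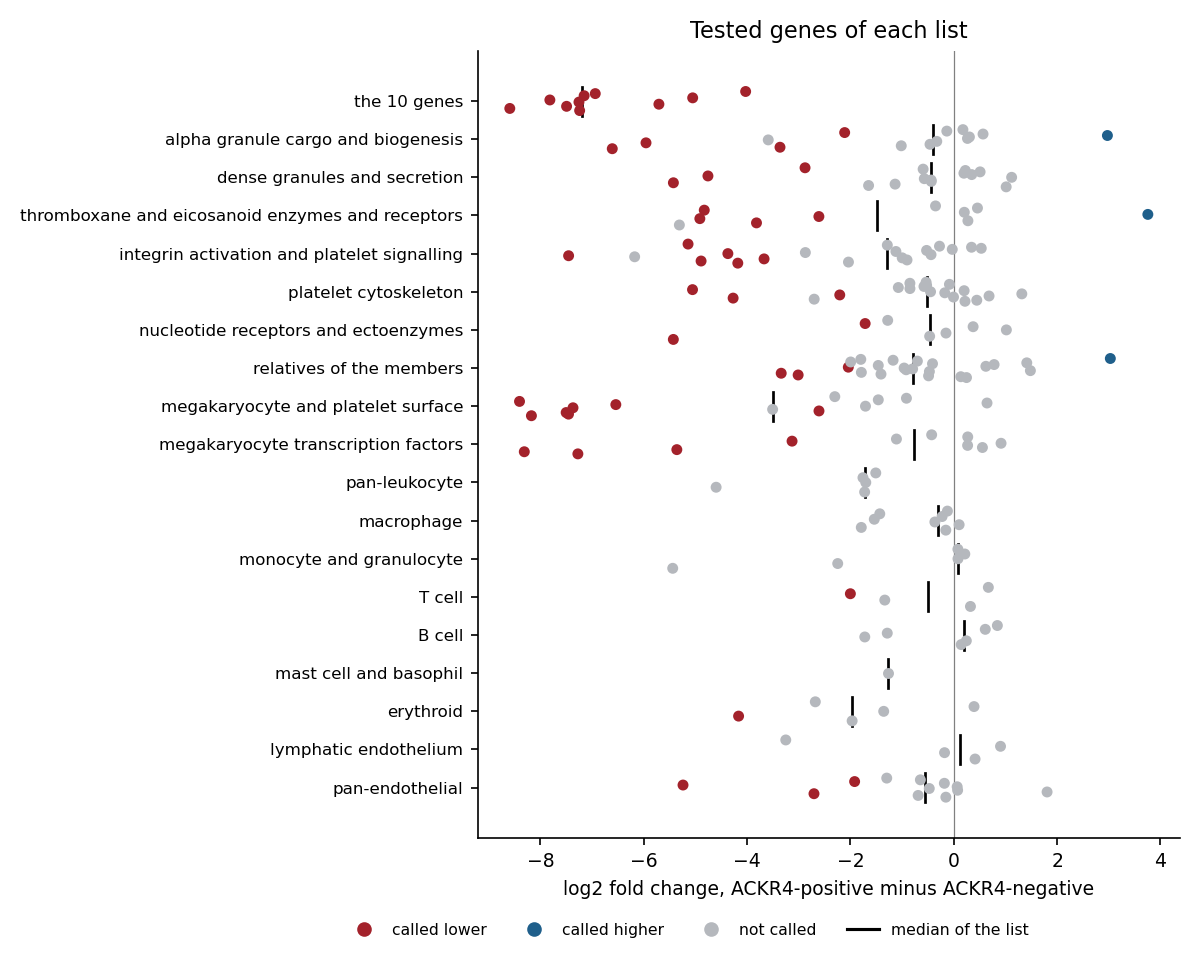
Log2 fold change of the 10 genes and of each tested gene of the 18 other lists (x axis), 1 row per list; red points were called lower, blue points higher, grey points were not called, and black bars are medians. The 10 genes have a median of -7.20, the platelet surface list one of -3.51, and the other lists lie closer to 0.

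Markers of the platelet lineage other than the 10 genes are given next. Their lists, too, were chosen with earlier results of these data known, and they are part of the other platelet genes counted above. Of 13 megakaryocyte and platelet surface genes 7 were lower and 0 higher, beside 3.71% and 1.91% of all tested genes, with a median of -3.51. With the sort as a block 11 were lower, beside 8.55% of all tested genes. Of the 13 genes, 6 were well above background on both ACKR4-positive arrays. The others, among them Itga2b, Gp5 and Gp9, passed the filter on dim signals only through the ACKR4-negative arrays, which favours finding a fall. The summed level of the list, relative to the 75th percentile, was 49.7 and 89.6 on the ACKR4-negative and 9.59 and 11.6 on the ACKR4-positive arrays. Itga2b, the integrin chain that binds fibrinogen, was at least 143-fold lower and Gp5 at least 87.5-fold. Clec1b, the podoplanin receptor gene, fell by 6.54 (SE 0.33; adjusted p = 0.00686). Gp9 fell by 7.46 (SE 1.14; adjusted p = 0.0394), but not past the threshold without ACKR4-negative replicate 1 (0.0515) or replicate 2 (0.0770), and ACKR4-positive replicate 1 was not well above background for it. Of 10 transcription factor genes of megakaryocytes 4 fell and 0 rose. These 4 passed the filter on dim signals only through the ACKR4-negative arrays, which again favours finding a fall. Gata1 was at least 81.2-fold, Gfi1b at least 21.7-fold and Runx1 at least 2.46-fold lower. Nfe2 fell by 8.31 (SE 1.15, adjusted p = 0.0305), a value that rests in part on ACKR4-positive replicate 1, where it was not well above background. Nfe2 lost its call without either ACKR4-negative array (0.0510 and 0.0616), and Runx1 without these or ACKR4-positive replicate 1 (0.0610 to 0.109) and with normexp (0.502). Other factors of this list, such as Fli1, are also made by endothelial cells.

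Some of the 10 genes are made by leukocytes too, so leukocyte and erythroid markers are given beside them. Of 34 tested markers in 7 lists, 2 were lower (Lck and Epor) and 0 higher by limma, beside 3.71% of all genes lower, and 11 were lower with the sort as a block, beside 8.55%. At an unadjusted p under 0.05, 8 were lower and 0 higher, beside 9.13% and 7.12% of all genes. Of 5 tested pan-leukocyte genes 0 were called, with a median of -1.73 and a summed level of 11.6 and 12.1 on ACKR4-negative and 2.94 and 5.99 on ACKR4-positive arrays. With the sort as a block 2 of these 5 were lower, as were 2 at an unadjusted p under 0.05. All 5 had a lower level in both sorts, beside 5989 of 17362 tested genes. Laptm5 differed by -4.60 ± 1.44, with ACKR4-positive replicate 1 not well above background, and Coro1a by -1.73 ± 1.23. Lcp1 differed by -1.70 ± 0.33 (adjusted p = 0.0711, and 0.00673 with the block). Ptprc, which encodes CD45, was not tested because it was not well above background on both arrays of a group. Of 8 macrophage genes 0 were called, 1 was lower at an unadjusted p under 0.05 and 3 were lower with the block. These 3 were the complement genes C1qa (-1.79 ± 1.74; adjusted p = 0.0401 with the block) and C1qc (-1.54 ± 1.61; 0.0282) and the scavenger receptor gene Marco (-1.43 ± 0.35; 0.0124). The groups overlapped for C1qa and C1qc, with ACKR4-positive replicate 1 not well above background. Csf1r differed by 0.10 ± 0.27. Of 5 tested monocyte and granulocyte genes 0 were called, with a median of 0.08. In that list 1 was lower at an unadjusted p under 0.05 and 2 were lower with the block. Lyz2, its lysozyme gene, had levels of 1.04 and 1.46 against -6.66 and -1.72, ACKR4-positive replicate 1 not being well above background. The Lyz2 difference was -5.44 ± 1.67 (adjusted p = 0.206, and 0.0263 with the block). Camp, of the same list, differed by 0.21 ± 0.36. Of 4 T cell genes Lck was lower, a call lost when any 1 array was left out (adjusted p of 0.0565 to 0.194) and with no or a stricter filter (0.0584 and 0.0529), and of 6 B cell genes 0 were called by limma, with 0 at an unadjusted p under 0.05 and 0 with the block. Of 5 tested erythroid genes Epor was lower by 4.17 (SE 0.27; adjusted p = 0.00871), with ACKR4-positive replicate 2 not well above background, and Slc4a1 had levels of 1.02 and -3.61 against -3.51 and -3.01. Hdc, the tested mast cell and basophil gene, differed by -1.27 ± 0.37. The part of any of these cells in the fall of the 10 genes was not tested.

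Endothelial genes were compared in the same way. Of 12 pan-endothelial genes 3 fell and 0 rose, beside 3.71% and 1.91% of all tested genes. Their median was -0.56 and their summed level 524.7 and 533.1 against 311.5 and 315.3. With the sort as a block 4 fell and 1 rose, beside 8.55% and 6.75% of all tested genes. The 1 that rose was Tek, which differed by 1.81 ± 0.49 (adjusted p = 0.155, and 0.00611 with the block). Esam fell by 1.92 (SE 0.27; adjusted p = 0.0307), Kdr by 2.71 and Emcn by 5.24, and the Kdr and Emcn calls were lost with quantile normalization (adjusted p of 0.112 and 0.0552) and with median centring (0.0570 and 0.0534). The Emcn call was lost also with a stricter filter (0.0583), and that of Kdr with no or a stricter filter (0.0510 and 0.0577) and with the mean of its probes (0.0902). Without 1 array, Esam (0.0878 to 0.188) and Kdr (0.0625 to 0.161) lost their calls in all 4 cases, and Emcn (0.112 and 0.0690) without either ACKR4-negative array. Of 4 tested genes of lymphatic endothelium 0 were called by limma, and 1, Nts, was lower at an unadjusted p under 0.05. Nts differed by -3.25 ± 0.68 without overlap (adjusted p = 0.0841, and 0.00217 with the sort as a block). Prox1, Lyve1 and Flt4 differed by 0.41 ± 1.05, -0.18 ± 0.45 and 0.90 ± 0.43.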

How the data were processed

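The authors obtained the spot intensities with Agilent Feature Extraction, version 10.7.3.1 per the submitters' processing notes. Per the file headers they are background-subtracted, detrended, not scaled between arrays, and all 4 arrays share 1 slide. The deposited value table, an intensity with each array's 75th percentile at 1498 to 1506 and a lowest value of 15, served as an alternative.

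Spots marked as outliers were left out, log2 signals of each probe's 4 spots were averaged and the array's 75th percentile was subtracted. Testing required signal well above background in over 50% of a probe's spots on each array of at least 1 group, and the brightest tested probe stood for a gene. Groups were compared by limma 3.58.1 (R 4.3.3, 2-sided) with Benjamini-Hochberg adjustment, a test checked on simulated data. Promoters were read with Python and plots drawn with matplotlib. Of 39429 probes, 27508 were named by accession, 3544 kept a current symbol, 167 were named through another probe and 8210 kept the file's name.

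Same-numbered arrays were read as 1 sort: the titles give them 1 mouse number, although per the labels' protocol each sort pooled 2 to 3 mice. Their deviations from the group means correlated at 0.605 across genes. The sort was a replicate block in an alternative. The 10 genes and the 18 lists were chosen with earlier results of these data known. Named from each list were its first 3 genes, the 3 with the smallest p and those that complete a count of 5 or fewer; 1 gene is not reported here. The precision is limited by the number of arrays.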

Additional observations from a re-analysis of the deposited data

How the results depend on the processing

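The 10 genes were lower in each of the 15 alternatives in which they were tested, and no call of theirs changed direction. Of the counts, 10 of 10 called lower stayed at 9 or 10 under normexp, quantile normalization, median centring, no filter, a floor, the deposited values, probe means, outlier spots kept, a trended prior and the replicate block. When only probes well above background on all arrays were tested, 3 of the 4 genes left were called lower, as were 11 of 83 other platelet genes and 0 of 22 leukocyte and erythroid markers, with fewer genes tested. Leaving out 1 array gave 6 to 10 of the 10 genes, 19 to 36 other platelet genes lower and 0 to 4 higher, and 1 to 3 leukocyte and erythroid markers lower. A group left with 1 array was assumed to vary like the other. With the sort as a replicate block 52 other platelet genes were lower, 5 higher and 11 leukocyte and erythroid markers lower; without a filter 1 marker was lower. The causes were not tested. For 87 other named genes, 1273 values were recomputed, of which 92 lost a call and 27 gained one. Of the 1273, 32 values of 20 genes changed sign and 0 of them were called. With 1 array left out, the differences of these genes ran over the following ranges: Slc18a2 -1.19 to 3.21, Myh9 -0.26 to 0.70, Tln1 -0.076 to 0.97, Entpd1 -0.83 to 0.53, Adgre1 -0.65 to 0.34, C1qa -3.95 to 0.37, Csf1r -0.031 to 0.24, C1qc -3.45 to 0.37, S100a9 -5.37 to 0.88, Camp -0.12 to 0.55, Cd3e -0.0049 to 0.65, Cd2 -2.86 to 0.19, Cd79a -0.37 to 0.85, Cd79b -5.49 to 2.04, Cd22 -0.20 to 1.89, Slc4a1 -4.28 to 0.35, Prox1 -0.75 to 1.57, Lyve1 -0.68 to 0.33, Pecam1 -0.55 to 0.24 and Cxcl1 -2.62 to 0.27. The sign turned also with the mean of the probes for Slc18a2 (-1.29) and Csf1r (-0.20). Signal over background limits F13a1 and Tubb1 in both, and Mmrn1, Rgs18, Fermt3 and Tbxas1 in 1, of the ACKR4-positive arrays.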
